A study of Homo sapiens with 6 samples.

Results

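The comparison described here set the 2 libraries of PC3 cells kept with 50 µM heme for 4 h against the 2 libraries kept with it for 2 h. These are 4 of the 6 RNA sequencing libraries of the series, chosen by their titles; the other 2 came from untreated cells and serve as a reference level. PC3 is a line of human prostate cancer cells that came from a bone metastasis, and all groups grew in RPMI medium with 10% fetal bovine serum and antibiotics. Heme was added to the culture medium, and the 2 h and 4 h libraries are separate samples, so no culture was followed over time. Of the 33514 gene symbols counted, 16209 passed the filter on low counts and were tested. Separate cultures behind the replicates are not stated in the labels, and the p-values may therefore reflect technical spread alone. PC3 is a single cell line, and RNA was measured in bulk, so fewer cells with a transcript and less of it per cell cannot be told apart.

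Heme is the iron-containing ring of hemoglobin and of many enzymes, and in free form it is reactive. Cells given heme take it apart with heme oxygenase and store the released iron in ferritin. In most cells heme also removes the repressor BACH1 from its target genes, frees the factor NRF2 to act on antioxidant genes, and lowers ALAS1, the first enzyme of heme synthesis. Immediate early genes, which code for transcription factors and signaling brakes, are switched on by many stimuli without new protein synthesis, and their transcripts are short-lived.

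Between 2 h and 4 h of heme, transcripts moved in both directions in similar numbers. Of the 16209 genes tested, 4558 (28.1%) passed the threshold (edgeR quasi-likelihood test, Benjamini-Hochberg adjusted p under 0.05, 2 libraries per group), 2270 (14.0%) of them higher at 4 h and 2288 (14.1%) lower. Among the called genes, some of which passed the filter only through the 2 h libraries, the changes downward were the larger ones. Of the called genes, 958 (5.91% of those tested) differed at least 2-fold, and 773 (4.77%) of these were lower at 4 h against 185 (1.14%) that were higher. At 4-fold or more, 161 genes were lower and 15 were higher. The median size of a called change was 0.51 on the log2 scale for genes that rose and 0.76 for genes that fell. The 2 h and 4 h libraries did not overlap for 10096 genes (62.3%).

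The filter bears on the genes that fell, since 560 tested genes passed it only through the 2 h libraries and 121 of these were called lower at 4 h. The count of genes that fell was 2167 without them. Another 258 tested genes passed only through the 4 h libraries, and 5 of these were called higher. Genes of both kinds stayed in the counts at 2-fold and 4-fold and in the median sizes. Their part in the larger size of the falls was not tested. Without 4 h replicate 1 the count of called genes was 2199, with 1166 higher and 1033 lower, and without 4 h replicate 2 the number of genes that fell was 1519. Under a test against a change of 1.5-fold (glmTreat), 158 genes were higher and 385 were lower.

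**Figure D1:**
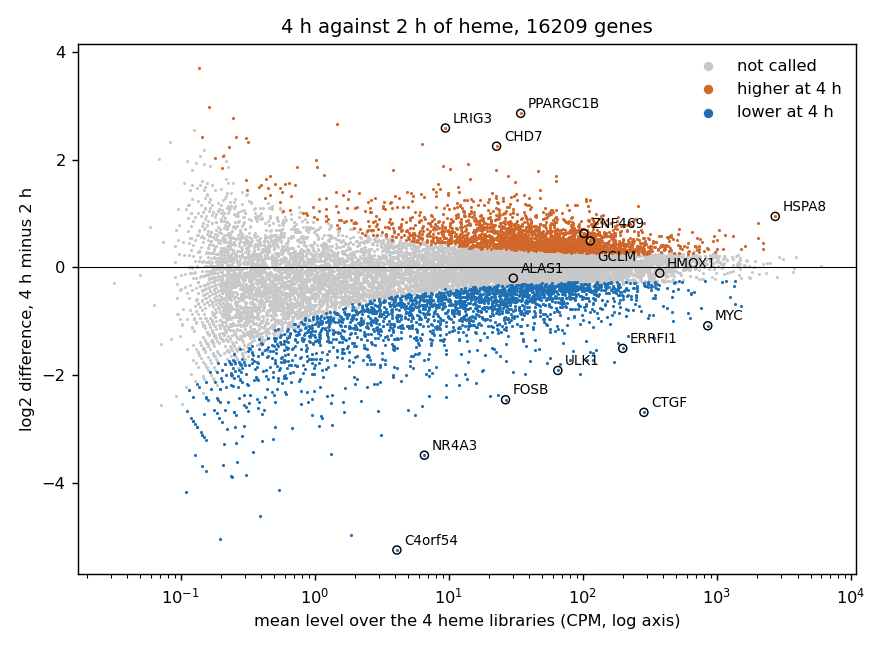
Each point is 1 of the 16209 tested genes, with its mean level over the 4 heme libraries in CPM, which are counts scaled to library size (log axis), and its log2 difference between 4 h and 2 h of heme. The 2270 genes higher at 4 h and the 2288 lower are coloured, and the falls reach further from 0 than the rises among genes with levels above 2 CPM.

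Set against untreated cells in the same fit, the 4 h libraries differed at far fewer genes than the 2 h libraries. At 4 h 5 genes (0.0308%) passed the threshold, with 583 at an unadjusted p under 0.05, and at 2 h 5136 genes (31.7%) passed. The 95% interval of the log2 difference lay within 1.5-fold either way for 10694 genes (66.0%) at 4 h against control. The same held for 6940 genes (42.8%) at 4 h against 2 h and for 6638 (41.0%) at 2 h against control. The median absolute log2 difference was 0.10 between 4 h and control, 0.29 between 4 h and 2 h and 0.31 between 2 h and control, with a median standard error (SE) of 0.14 for each. These comparisons share libraries, so their values stand side by side and are not independent. DESeq2 called 15 genes at 4 h against control, and for the genes that passed no threshold a smaller difference is not shown to be absent.

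**Figure D2:**
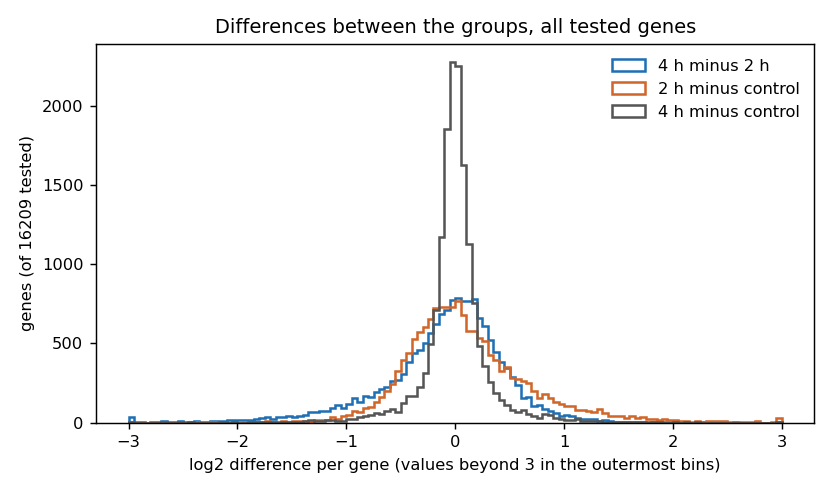
Histograms of the log2 difference per gene for 4 h minus 2 h, 2 h minus control and 4 h minus control over the 16209 tested genes, with values beyond 3 in the outermost bins. The 4 h minus control differences form the narrowest peak, with a median absolute value of 0.10 against 0.29 and 0.31 for the others.

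Reads counted to genes ran from 53129375 to 55537611 per library, so depth was close to equal between groups. The first principal component (58.0% of the variance) put both 2 h libraries, at 55.6 and 39.1, apart from the other 4, at -27.0 to -19.2. Replicates differed by a median of 0.20 on the log2 scale at 2 h, 0.16 at 4 h and 0.12 in the controls, and pairs of a 2 h and a 4 h library by 0.26 to 0.38. Mitochondrial messenger RNAs took 2.33% to 2.73% of the counts in each library, and 0 of 13 were called between 2 h and 4 h. All 11 epithelial and PC3 markers were detected. They summed to 7350 and 6660 CPM at 2 h, 6290 and 6200 CPM at 4 h and 6260 and 6250 CPM in the controls. The luminal prostate markers KLK3 and FOLH1 had no counts in any library, and a count of 0 allows up to 3 counts, or 0.0565 CPM in the shallowest library. Markers of other cell types were low and, like the epithelial and PC3 sum, somewhat higher at 2 h. The 12 blood cell markers summed to 65.0 and 57.5 CPM at 2 h and 50.2 and 49.5 CPM at 4 h, with CD68 the main part and MS4A1 at 0 in every library. The 11 fibroblast and endothelial markers summed to 91.7 and 77.5 CPM at 2 h and 44.6 and 51.3 CPM at 4 h. COL1A1 (49.6 and 42.9 CPM at 2 h) and PECAM1 (41.1 and 33.8 CPM at 2 h) were the main part. COL1A2, COL3A1, DCN, LUM and VWF reached at most 0.132 CPM in any library. The 10 luminal prostate markers summed to 127 and 138 CPM at 2 h and 92.8 and 94.5 CPM at 4 h. The 10 red cell markers summed to at most 0.253 CPM, with the globin genes HBA1, HBA2, HBB, HBD and HBG1 at 0. The part of these markers in the results was not tested.

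HMOX1 and ALAS1 stood away from the controls at both times and were not called different between 2 h and 4 h. HMOX1, the gene of the inducible heme oxygenase, had 451 and 328 CPM at 2 h and 382 and 341 CPM at 4 h, against 10.4 and 11.4 CPM in the controls. The 2 h and 4 h libraries overlapped, and both times stood far above the controls. The difference from 2 h to 4 h was -0.11 on the log2 scale (SE 0.13, 95% interval -0.38 to 0.16, edgeR adjusted p = 0.566), and at 4 h against control it was 5.05 (95% interval 4.72 to 5.38, edgeR adjusted p = 4.84e-11). The sign of the first value depended on a single library, being 0.15 without 2 h replicate 1 and -0.30 (edgeR adjusted p = 0.0352) without 2 h replicate 2. It was 0.031 after the correction for GC content and length. ALAS1 had 35.4 and 29.4 CPM at 2 h and 28.6 and 27.8 CPM at 4 h, against 63.8 and 66.6 CPM in the controls. Both 4 h libraries were below both 2 h libraries, by less than the test could call (log2 -0.20, SE 0.12, 95% interval -0.46 to 0.05, edgeR adjusted p = 0.222). Against control, the log2 difference of ALAS1 was -1.01 at 2 h (edgeR adjusted p = 3.97e-05) and -1.21 at 4 h (edgeR adjusted p = 1.88e-04).

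GCLM and ZNF469 passed both thresholds and stood further from control at 4 h than at 2 h. GCLM, which encodes the modifier subunit of the enzyme that starts glutathione synthesis, had 64.2 and 63.8 CPM in the controls, 89.5 and 99.7 at 2 h and 137 and 129 at 4 h. It rose by 0.49 on the log2 scale from 2 h to 4 h (SE 0.10, edgeR adjusted p = 0.0022) and lay 1.05 above control at 4 h. ZNF469, a zinc finger gene known from a disorder of the cornea, had 17.4 and 17.1 CPM in the controls, 85.3 and 74.5 at 2 h and 117 and 130 at 4 h. It rose by 0.63 from 2 h to 4 h (SE 0.11, edgeR adjusted p = 6.07e-04) and lay 2.84 above control at 4 h. In both genes the 3 groups did not overlap. The rule that picked them required this for 2 h and 4 h and for 4 h and control. CYP1B1, a cytochrome P450 enzyme that itself holds heme, was the last of the 5 genes called at 4 h against control. It had 341 and 328 CPM in the controls, 698 and 794 at 2 h and 576 and 484 at 4 h, so it fell from 2 h to 4 h (log2 -0.49, SE 0.10, edgeR adjusted p = 0.00267) and was still 0.67 above control (edgeR adjusted p = 0.0378). The call of CYP1B1 against control was lost without either control library or either 4 h library. In the GENCODE annotation of GRCh38, GCLM (ENSG00000023909.9) lies on chromosome 1 from 93885205 to 93909456, ZNF469 (ENSG00000225614.2) on chromosome 16 from 88427471 to 88440757 and CYP1B1 (ENSG00000138061.11) on chromosome 2 from 38066973 to 38109902.

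**Figure D3:**
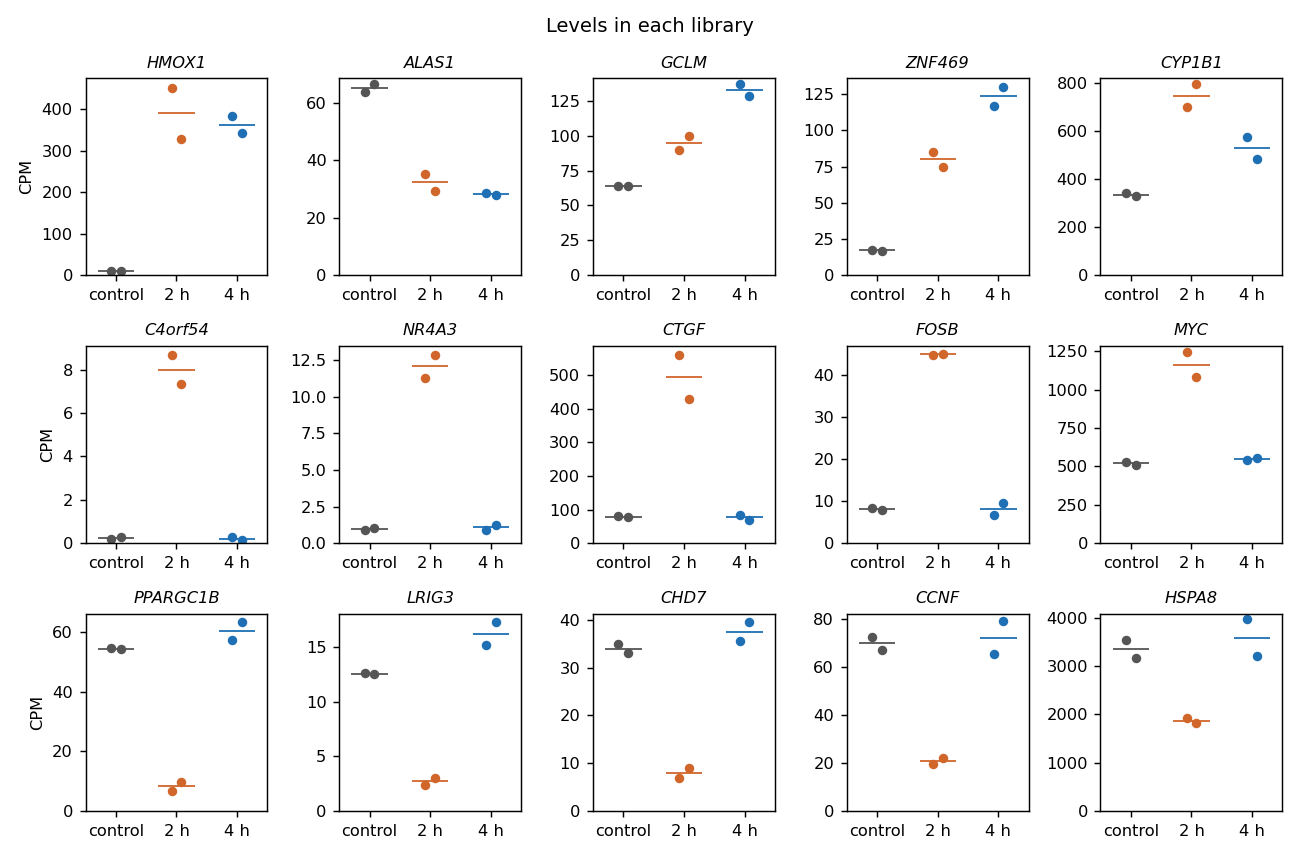
Levels of 15 genes in CPM on linear axes, with 1 point per library and a bar at the mean of each group of 2. In the top row HMOX1, ALAS1, GCLM, ZNF469 and CYP1B1 are still away from the controls at 4 h; in the middle row C4orf54, NR4A3, CTGF, FOSB and MYC are high only at 2 h, and in the bottom row PPARGC1B, LRIG3, CHD7, CCNF and HSPA8 are low only at 2 h.

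Most other genes of heme and iron handling did not pass the test between 2 h and 4 h, which also held for 11651 of all 16209 tested genes. The share that rose was 18.8% in heme synthesis, 16.7% in heme breakdown and storage and 0% in iron uptake, beside 14.0% of all genes. The share that fell was 6.25%, 8.33% and 18.2% in turn, beside 14.1%. Of 16 tested genes of heme synthesis 3 rose and 1 fell (median log2 0.05, beside -0.03 over all tested genes). The counts of rises and falls in the gene lists moved with the processing, and a range written as "over the alternatives" spans DESeq2 size factors, no filter, a correction for GC content and transcript length and the fits without each heme library in turn. For heme synthesis it was 2 to 5 rises and 0 to 2 falls. SLC25A38, a mitochondrial carrier that supplies glycine for heme synthesis, had 38.1 and 37.0 CPM at 2 h and 77.1 and 79.8 CPM at 4 h (log2 1.06, SE 0.10, edgeR adjusted p = 5.6e-06). Its 4 h libraries lay next to the controls, at 75.5 and 77.3 CPM. CPOX, a later enzyme of the pathway, rose by 0.52 (SE 0.12), ABCB10, a mitochondrial transporter, rose by 0.47 (SE 0.16), and ALAD, the second enzyme, had a log2 difference of -0.38 (SE 0.14, edgeR adjusted p = 0.0494). The call of ABCB10 was lost without 2 h replicate 1 (log2 0.18) or either 4 h library (log2 0.48), and that of ALAD under several alternatives. Of 12 tested genes of heme breakdown, export and iron storage 2 rose and 1 fell (1 to 4 and 0 to 3 over the alternatives). FLVCR1, a heme exporter of the plasma membrane, rose from 11.7 and 15.02 CPM at 2 h to 22.0 and 23.0 CPM at 4 h (log2 0.75, SE 0.14). The constitutive heme oxygenase gene HMOX2 rose by 0.49 (SE 0.11), and SLC48A1, which carries heme out of lysosomes, fell by 0.44 (SE 0.12). Without 4 h replicate 1 neither was called (HMOX2 log2 0.40, edgeR adjusted p = 0.0745; SLC48A1 log2 -0.38, edgeR adjusted p = 0.14), and SLC48A1 was not called without 4 h replicate 2 either (edgeR adjusted p = 0.0562). The ferritin chains, named after their values were seen, had log2 differences of -0.06 (FTH1, SE 0.10) and 0.10 (FTL, SE 0.10) and were not called.

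Of 11 tested genes of iron uptake and its control none rose and 2 fell, LRP1, a receptor that takes up heme bound to hemopexin (log2 -0.73, SE 0.15), and the iron transporter SLC11A2 (log2 -0.35, SE 0.09). Over the alternatives 0 to 3 rose and 0 to 3 fell. The call of SLC11A2 was lost without control replicate 2, without 4 h replicate 1 and without 4 h replicate 2 (edgeR adjusted p = 0.0558, 0.0736 and 0.061). LRP1 was at 110 and 76.9 CPM at 2 h and 51.4 and 61.2 CPM at 4 h, and its call was lost without 4 h replicate 1 (log2 -0.60, edgeR adjusted p = 0.0585). HPX, the gene of hemopexin itself, was scarce, with 0.970 and 0.573 CPM at 2 h and 0.310 and 0.332 CPM at 4 h. Its groups did not overlap, and the difference of -1.26 (SE 0.46, edgeR adjusted p = 0.052) missed the threshold. Of 34 tested NRF2 targets 3 rose (8.82%, beside 14.0% over all genes) and 7 fell (20.6%, beside 14.1%), with a median log2 of -0.07. With the GC and length correction 9 rose and 8 fell, and without 4 h replicate 1 the numbers were 1 and 3. Beside GCLM, the redox genes TXN (thioredoxin, log2 0.43) and PRDX1 (peroxiredoxin 1, log2 0.37) rose. The genes that fell included the cystine importer SLC7A11, from 120 and 174 CPM at 2 h to 73.5 and 73.3 CPM at 4 h (log2 -1.01, SE 0.14), the exporter ABCC3 (log2 -0.55, SE 0.12) and TRIM16L (log2 -0.85, SE 0.13), whose reads may be shared with its near-identical copy TRIM16. The repressor gene BACH1 also fell (log2 -0.42, SE 0.12); TXN, PRDX1 and BACH1 are named here after their values were seen. Without 4 h replicate 1 none of these 3 was called (edgeR adjusted p from 0.0636 to 0.102), and BACH1 was not called without 2 h replicate 2 or 4 h replicate 2 either. Of 5 tested metallothionein and zinc genes 1 rose, the zinc exporter SLC30A1 (log2 0.42, SE 0.13). SLC30A1 was not called without 2 h replicate 1 (log2 0.21) or without 4 h replicate 1 (log2 0.34). MT2A was level at 364 and 358 CPM at 2 h and 373 and 386 CPM at 4 h (log2 0.07, SE 0.09, edgeR adjusted p = 0.581).

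The 15 largest falls from 2 h to 4 h, taken among called genes that averaged 2 CPM or more and whose groups did not overlap, ran from -5.25 to -2.22 on the log2 scale (edgeR adjusted p from 7.17e-08 to 3.81e-05). Their median level was 10.8 CPM at 2 h and 1.45 CPM at 4 h, and 1.45 CPM in the controls as well. None of the 15 was called at 4 h against control, where their log2 differences ran from -0.49 to 0.35. C4orf54, an open reading frame of little known function, was at 8.65 and 7.33 CPM at 2 h and at 0.271 and 0.147 CPM at 4 h (log2 -5.25, SE 0.30, edgeR adjusted p = 9.74e-08). NR4A3, an orphan nuclear receptor of the immediate early class, was at 11.3 and 12.9 CPM at 2 h and at 0.930 and 1.22 CPM at 4 h (log2 -3.49, SE 0.21). CTGF, a secreted matrix protein also called CCN2, was the most abundant of the 15, with 562 and 428 CPM at 2 h and 85.0 and 68.2 CPM at 4 h (log2 -2.69, SE 0.14). In all 3 genes the 4 h libraries overlapped the controls.

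The others belong to several processes. FOSB, a subunit of the AP-1 transcription factor, went from 44.9 CPM in both 2 h libraries to 6.74 and 9.59 CPM (log2 -2.46, SE 0.16), and NR4A1, the relative of NR4A3, from 43.5 and 34.0 to 7.13 and 7.97 CPM (log2 -2.36, SE 0.16). The cholesterol exporter ABCG1 (log2 -2.66, SE 0.27), the Notch coactivator MAML3 (log2 -2.65, SE 0.25) and PRR5L, which binds the kinase complex mTORC2 (log2 -2.73, SE 0.21), followed. So did the adhesion scaffold NEDD9 (log2 -2.40, SE 0.19), the cytoskeletal gene NAV2 (log2 -2.39, SE 0.15), the peptide hormone gene ADM2 (log2 -2.40, SE 0.20) and the neuronal membrane gene SLITRK6 (log2 -2.58, SE 0.21). C2orf54 (log2 -3.11), PALMD (log2 -2.48) and the noncoding AC111149.2 (log2 -2.22) completed the 15. Just under the level rule, and named after its value was seen, the immediate early gene EGR3 was at 3.31 and 3.93 CPM at 2 h. It was at 0.0775 and 0.148 CPM at 4 h and at 0.0771 and 0.259 CPM in the controls. EGR3 passed the filter on low counts only through the 2 h libraries, which favours a fall.

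Promoters of 3 of these genes are printed because they hold the letters TATAAA. The window runs from 250 bases before to 50 after the RefSeq start on GRCh38.p14, 5′ to 3′ on the gene's strand. Capitals mark the TATA box TATAAA, the AP-1 element TGANTCA and the CCAAT box CCAAT, searched on both strands. The 3 were chosen after the values were seen. The C4orf54 window is chr4:99657779-99658078 on the minus strand, upstream of the GENCODE gene (ENSG00000248713.1, which ends at 99654648), the CTGF window is chr6:131951323-131951622 on the minus strand, and the FOSB window is chr19:45467746-45468045 on the plus strand.
C4orf54: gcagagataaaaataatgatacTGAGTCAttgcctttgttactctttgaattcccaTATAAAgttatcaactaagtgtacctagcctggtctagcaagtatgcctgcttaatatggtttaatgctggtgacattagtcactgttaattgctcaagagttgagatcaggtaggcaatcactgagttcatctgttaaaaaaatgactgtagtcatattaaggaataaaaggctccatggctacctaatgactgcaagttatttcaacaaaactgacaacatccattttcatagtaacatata
CTGF: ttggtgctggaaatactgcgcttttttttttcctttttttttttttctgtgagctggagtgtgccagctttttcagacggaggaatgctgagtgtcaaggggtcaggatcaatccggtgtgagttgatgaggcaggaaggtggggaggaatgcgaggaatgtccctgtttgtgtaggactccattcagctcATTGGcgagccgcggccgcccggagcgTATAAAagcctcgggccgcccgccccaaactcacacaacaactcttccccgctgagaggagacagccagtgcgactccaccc
FOSB: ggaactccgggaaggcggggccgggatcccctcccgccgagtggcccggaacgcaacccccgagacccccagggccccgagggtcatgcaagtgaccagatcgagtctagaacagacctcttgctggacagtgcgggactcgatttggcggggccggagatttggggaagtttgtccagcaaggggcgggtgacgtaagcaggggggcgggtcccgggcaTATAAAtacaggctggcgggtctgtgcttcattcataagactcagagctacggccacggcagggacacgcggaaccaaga
In CTGF and FOSB the TATA box began 32 and 30 bases before the start, and a CCAAT box of CTGF, read on the other strand, began 59 bases before it. In C4orf54 the letters TATAAA began 194 bases before the start, further from it than in CTGF and FOSB, and an AP-1 element began 228 bases before it. Of the 8 promoters found for the 15 largest falls, 3 held TATAAA, 2 held TGANTCA (C4orf54 and SLITRK6), 2 held CCAAT and 0 held the ETS element CCGGAAG. Such a match describes letters and is no shown site of binding.

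Most of the tested immediate early genes fell between 2 h and 4 h. Of 32 tested, 25 fell and none rose (median log2 -0.78), beside 14.1% lower and 14.0% higher over all tested genes. EGR3, among the 25, passed the filter only through the 2 h libraries. ATF3, a stress-induced transcription factor, was at 53.4 and 43.1 CPM at 2 h and at 13.6 and 11.4 CPM at 4 h, which is below the controls at 15.1 and 15.6 CPM (log2 -1.95 against 2 h, SE 0.14, edgeR adjusted p = 5.51e-07). The difference of ATF3 from control at 4 h, -0.29, was not called. JUN, JUND and FOS, other AP-1 subunits among those called, had log2 values of -0.92, -1.19 and -1.08, and EGR1, with -0.34 (SE 0.13, edgeR adjusted p = 0.0601), missed the threshold. These 4 are named after their values were seen. The count of falls was 19 without 4 h replicate 1 and 22 to 26 without each of the other heme libraries.

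Brakes on growth factor signaling were among the genes that fell. Of 17 tested feedback genes of the MAP kinase pathway 8 fell and 1, the phosphatase gene DUSP7 (log2 0.66), rose (median log2 -0.27). These shares were 47.1% and 5.88%, beside 14.1% and 14.0% over all genes. DUSP1, a phosphatase that switches off stress kinases, was at 206 and 168 CPM at 2 h and 61.8 and 67.1 CPM at 4 h (log2 -1.53, SE 0.11). DUSP5, a phosphatase for ERK, went from 189 and 150 to 58.7 and 54.7 CPM (log2 -1.58, SE 0.12), with controls at 67.2 and 75.2 CPM, and DUSP16 fell by 0.88 (SE 0.11). ERRFI1, an inhibitor of the EGF receptor family, was at 298 and 289 CPM at 2 h, 109 and 98.1 CPM at 4 h and 152 and 144 CPM in the controls (log2 -1.50 from 2 h, SE 0.10, edgeR adjusted p = 1.66e-07). Both genes thus ended below both controls at 4 h. The difference of ERRFI1 from control, -0.52, missed the threshold and passed it under several alternatives, DESeq2 among them.

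Of 12 tested genes of ERBB receptors, their ligands and LRIG proteins 5 fell and 2 rose (median log2 -0.21; 4 to 6 falls and 1 to 3 rises over the alternatives, with 1 rise without 4 h replicate 1). With all libraries 41.7% of these genes fell and 16.7% rose, beside 14.1% and 14.0% over all genes. The receptor gene ERBB2 went from 98.0 and 80.5 CPM at 2 h to 36.1 and 44.8 CPM at 4 h (log2 -1.14, SE 0.13), and the ligand gene HBEGF from 793 and 851 to 466 and 392 CPM (log2 -0.94, SE 0.10). LRIG3, a membrane protein that modulates receptor kinases, moved the other way, from 2.40 and 2.99 CPM to 15.1 and 17.3 CPM (log2 2.59, SE 0.17, edgeR adjusted p = 1.66e-07).

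ATF4 is the transcription factor of the response to amino acid shortage. Of 35 tested ATF4 targets 21 fell and 1 rose (median log2 -0.35), and the number of falls was 14 without 4 h replicate 1 and 15 without 4 h replicate 2. TRIB3, a pseudokinase that feeds back on ATF4, was at 302 and 230 CPM at 2 h and 98.4 and 102 CPM at 4 h (log2 -1.40, SE 0.12), still above the controls at 77.6 and 80.5 CPM, though not called against them (log2 0.34). JDP2, an AP-1 repressor, fell by 1.98 (SE 0.18). The secreted stress factor GDF15, named after its values were seen, had 189 and 114 CPM at 2 h, 40.0 and 37.2 CPM at 4 h and 25.9 and 32.5 CPM in the controls (log2 -1.97, SE 0.18). The exception that rose, DDIT3, encodes the death-linked factor CHOP. It was at 10.0 and 10.9 CPM at 2 h and 20.7 and 20.5 CPM at 4 h (log2 0.97, SE 0.13), at the level of the controls, 20.2 and 21.0 CPM. ATF4 itself was at 300 and 291 CPM at 2 h and 278 and 274 CPM at 4 h (log2 -0.10, SE 0.09, edgeR adjusted p = 0.425). Of 20 tested cytosolic tRNA synthetase genes 6 fell and 4 rose (3 to 7 and 0 to 5 over the alternatives, with 3 falls without 4 h replicate 2). AARS, the enzyme for alanine, fell from 420 and 390 to 215 and 224 CPM (log2 -0.89, SE 0.09) as did CARS, for cysteine (log2 -0.71, SE 0.10), while RARS, for arginine, rose by 0.41 (SE 0.10). None of the 4 rises was called without 4 h replicate 1.

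Inflammatory and developmental signaling genes were called lower at 4 h more often than higher. Of 26 tested NF-kB and cytokine genes 14 fell and 3 rose (median log2 -0.42). These shares were 53.8% and 11.5%, beside 14.1% and 14.0% over all genes. CSF2, the cytokine GM-CSF, went from 20.1 and 24.1 CPM at 2 h to 4.67 and 5.86 CPM at 4 h (log2 -2.07, SE 0.16), and TNFAIP2, induced by tumor necrosis factor, from 824 and 736 to 412 and 460 CPM (log2 -0.84, SE 0.10). The cytokine IL1A (log2 -0.83, SE 0.12) and the NF-kB subunit gene NFKB2 (log2 -0.68, SE 0.10) also fell. The 3 that rose were the chemokine genes CCL20 (log2 0.34), CXCL3 (log2 0.38) and CXCL5 (log2 0.34), named after their values were seen, and none of the 3 was called without 2 h replicate 1 or without 4 h replicate 1. Of 25 tested genes of the TGF-beta, BMP and Notch pathways 10 fell and 2 rose, or 40% and 8%, beside 14.1% and 14.0% over all genes. The receptor NOTCH3 went from 69.5 and 41.8 to 18.8 and 21.9 CPM (log2 -1.45, SE 0.18), the ligand JAG1 from 173 and 170 to 88.8 and 90.3 CPM (log2 -0.94, SE 0.10) and the coactivator MAML2 from 23.8 and 25.2 to 9.94 and 9.22 CPM (log2 -1.35, SE 0.13). Of these 25, 6 were called lower without 4 h replicate 1 and 12 without 4 h replicate 2. The 2 rises were the BMP antagonist NOG (log2 1.11, SE 0.15) and the ligand JAG2 (log2 0.69, SE 0.12), named after their values were seen.

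Of 19 tested YAP targets 6 fell and 4 rose, and their median of -0.06 was above 0 without 2 h replicate 2, where 7 rose. With all libraries 31.6% of the YAP targets fell and 21.1% rose, beside 14.1% and 14.0% over all genes. Beside CTGF, the matrix gene CYR61 fell from 1526 and 1428 to 1045 and 981 CPM (log2 -0.54, SE 0.09) as did the kinase gene NUAK2 (log2 -0.94, SE 0.14), while WWC1, an upstream regulator of the Hippo pathway, rose by 0.58 (SE 0.09). Of 27 tested autophagy and lysosome genes 8 fell and 1, ATG12 (log2 0.40, named after its value was seen), rose. These shares were 29.6% and 3.70%, beside 14.1% and 14.0% over all genes. ATG12 was not called without 2 h replicate 1 (edgeR adjusted p = 0.0835) or without 4 h replicate 1 (edgeR adjusted p = 0.201). ULK1, the kinase that starts autophagy, went from 114 and 92.4 CPM at 2 h to 25.1 and 29.6 CPM at 4 h (log2 -1.91, SE 0.13, edgeR adjusted p = 2.47e-07), and both 4 h libraries lay at the controls, 29.0 and 30.1 CPM. GABARAPL1 (log2 -0.94, SE 0.16), ATG2A (log2 -0.66, SE 0.12) and ATG7 (log2 -0.40, SE 0.10), all of the machinery that forms autophagosomes, fell as well. Without 2 h replicate 1 or 4 h replicate 2, 3 of these 8 genes were called lower, without 4 h replicate 1 4 of them, and without 2 h replicate 2 all 8 and 2 others. ATG7 was among those lost without 2 h replicate 1 (log2 -0.28) and without 4 h replicate 2 (log2 -0.34). Of 23 tested interferon genes 5 fell (21.7%, beside 14.1% over all genes) and 1 rose (4.35%, beside 14.0%). The 1 that rose was IFIT5, an antiviral RNA-binding protein (log2 1.23, SE 0.14). The signal transducer STAT2 (log2 -0.71, SE 0.12), PARP14 (log2 -0.68, SE 0.11) and the RNA sensor gene DDX58 (log2 -0.48, SE 0.14) were among those that fell. The number of interferon genes called lower ran from 2 without 4 h replicate 2 to 11 without 2 h replicate 2, and it was 8 with the GC and length correction and 3 without 2 h replicate 1 or 4 h replicate 1. DDX58 was not called without either 4 h library (edgeR adjusted p = 0.0514 and 0.143).

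MYC, the transcription factor gene that the series is concerned with, was at 1247 and 1080 CPM at 2 h and at 544 and 553 CPM at 4 h. All 4 values lay above the controls, 529 and 510 CPM, and the 4 h libraries were close to them. MYC fell by 1.08 on the log2 scale (SE 0.09, 95% interval -1.29 to -0.89, edgeR adjusted p = 2.28e-06), or 2.12-fold, and its difference from control at 4 h was 0.08 (95% interval -0.12 to 0.28). Of 14 tested genes of the MYC network 4 rose and 2 fell (3 to 6 and 1 to 3 over the alternatives, with 1 fall without 2 h replicate 1 or 4 h replicate 1). With all libraries the shares were 28.6% higher and 14.3% lower, beside 14.0% and 14.1% over all genes. The median log2 difference of the network was 0.01, beside -0.03. The partner MAX rose from 70.9 CPM in both 2 h libraries to 92.7 and 98.3 CPM (log2 0.43, SE 0.10). MGA, which pairs with MAX in a repressor complex, rose by 0.85 (SE 0.12) and MLX, a MAX-like factor, by 0.58 (SE 0.10).

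The 15 largest rises, by the same rule as the falls, ran from 1.59 to 2.86 on the log2 scale (edgeR adjusted p from 8.06e-08 to 1.14e-04). Their median level was 7.89 CPM at 2 h and 35.1 CPM at 4 h, beside 29.8 CPM in the controls, so these transcripts were low at 2 h. None was called at 4 h against control, where their log2 differences ran from -0.13 to 0.54. PPARGC1B, a coactivator of mitochondrial gene expression, was at 6.84 and 9.81 CPM at 2 h and at 57.6 and 63.3 CPM at 4 h, with controls at 54.8 and 54.3 CPM (log2 2.86, SE 0.15). CHD7, a chromatin remodeller, was at 6.82 and 8.96 CPM at 2 h and 35.5 and 39.6 CPM at 4 h (log2 2.25, SE 0.14). Both genes had 4 h libraries above both controls.

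CCNF and HJURP among them also stand in the mitosis list. CCNF, a cyclin that directs protein degradation, went from 19.4 and 22.2 to 65.5 and 79.2 CPM (log2 1.80, SE 0.12), HJURP, which deposits the centromere histone, from 24.4 and 34.6 to 92.1 and 100 CPM (log2 1.70, SE 0.14) and FBXO5, an inhibitor of the anaphase-promoting complex, from 12.2 and 19.0 to 47.1 and 47.0 CPM (log2 1.59, SE 0.16). PIF1, a helicase that unwinds G-quadruplex DNA, went from 6.77 and 7.19 to 16.0 and 27.5 CPM (log2 1.64, SE 0.20), with its 4 h libraries far apart. The others were KAZN, a gene of epithelial junctions (log2 2.29), the GTPase regulator TBC1D30 (log2 1.91), the vesicle GTPase RAB3A (log2 1.89), KIAA1586 (log2 1.83), ZNF165 (log2 1.81), the nitric oxide receptor subunit GUCY1A1 (log2 1.80), the repressor BEND3 (log2 1.70) and the protease ADAMTS1 (log2 1.61), beside LRIG3.

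The promoters of PPARGC1B and HJURP are printed as those of a coactivator and a division gene that rose, chosen after the values were seen. They cover the same window around the RefSeq start on GRCh38.p14, and capitals mark CCAAT and the ETS element CCGGAAG on either strand. The PPARGC1B window is chr5:149771690-149771989 on the plus strand, which lies inside the span of the GENCODE gene (ENSG00000155846.16, chromosome 5 from 149730298 to 149855022), and the HJURP window is chr2:233854486-233854785 on the minus strand.
PPARGC1B: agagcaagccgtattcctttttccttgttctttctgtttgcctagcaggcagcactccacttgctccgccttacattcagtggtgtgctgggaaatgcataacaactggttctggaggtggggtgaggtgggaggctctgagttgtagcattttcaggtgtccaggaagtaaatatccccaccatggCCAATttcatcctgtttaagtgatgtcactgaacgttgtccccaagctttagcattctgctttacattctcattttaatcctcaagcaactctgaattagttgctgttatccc
HJURP: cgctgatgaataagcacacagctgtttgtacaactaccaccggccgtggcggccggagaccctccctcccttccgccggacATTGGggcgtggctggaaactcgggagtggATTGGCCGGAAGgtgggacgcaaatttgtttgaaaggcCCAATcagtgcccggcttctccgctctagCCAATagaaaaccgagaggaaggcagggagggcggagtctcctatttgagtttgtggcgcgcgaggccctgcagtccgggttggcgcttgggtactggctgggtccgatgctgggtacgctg
HJURP held 4 CCAAT boxes, of which the 1 that began 139 bases before the start ran directly into the ETS element at 134 bases. PPARGC1B held 1 CCAAT box, 63 bases before its start. Of the 6 promoters found for the 15 largest rises, 4 held CCAAT (PPARGC1B, CCNF, HJURP and PIF1), 1 held CCGGAAG and 0 held TATAAA.

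Chaperone genes were called higher at 4 h more often than lower. Of 29 tested heat shock and cytosolic chaperone genes 19 rose and none fell (median log2 0.40, beside 14.0% higher and a median of -0.03 over all genes). HSPA8, the constitutive HSP70, was at 1916 and 1812 CPM at 2 h and at 3972 and 3208 CPM at 4 h, with controls at 3552 and 3161 CPM (log2 0.95, SE 0.10, edgeR adjusted p = 2.32e-05). HSPH1, its nucleotide exchange factor, rose from 159 and 166 to 403 and 309 CPM (log2 1.13, SE 0.12), CHORDC1, a partner of HSP90, by 1.16 (SE 0.13) and the cochaperone gene DNAJA1 by 0.86 (SE 0.11). The stress-inducible pair HSPA1A and HSPA1B, near-identical copies whose reads cannot be told apart with certainty, had log2 values of 0.63 (SE 0.20) and 0.66 (SE 0.15), and are named after their values were seen. HSPA1A was not called by DESeq2 (adjusted p = 0.182) nor without 2 h replicate 2, 4 h replicate 1 or 4 h replicate 2, and HSPA1B was not called without 4 h replicate 1 (edgeR adjusted p = 0.0746). In HSPA8 and HSPH1, 4 h replicate 1 was the higher of the 4 h libraries, and without it 11 of the 29 were called higher.

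Of 19 tested chaperones of the endoplasmic reticulum 12 rose and 1, DNAJB9 (log2 -0.45, named after its value was seen), fell. These shares were 63.2% and 5.26%, beside 14.0% and 14.1% over all genes. HSPA5, the main chaperone there, went from 1722 and 1598 to 2550 and 2291 CPM (log2 0.54, SE 0.09), HSP90B1 from 1025 and 1090 to 1702 and 1450 CPM (log2 0.57, SE 0.10) and SDF2L1 from 46.0 and 44.4 to 75.0 and 87.2 CPM (log2 0.84, SE 0.11). CRELD2 rose by 0.72 (SE 0.11). The count was 9 without 4 h replicate 1, and DNAJB9 was not called without 4 h replicate 2 (log2 -0.30). Of 33 tested proteasome subunit genes 8 rose and none fell (median log2 0.18), PSMD12 among them (log2 0.54, SE 0.11). The share that rose was 24.2%, beside 14.0% over all genes. The number of rises was 1 without 4 h replicate 1, 4 without 2 h replicate 1, 12 without 4 h replicate 2 and 17 with the GC and length correction.

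Ribosome building had the highest share of rises among the lists, 86.0% beside 14.0% over all genes. Of 50 tested ribosome biogenesis genes 43 rose and none fell (median log2 0.49), 33 without 4 h replicate 1 and 39 to 41 without each of the other heme libraries. POLR1B, a core subunit of the polymerase that makes ribosomal RNA, was at 90.4 and 102 CPM at 2 h and 189 and 187 CPM at 4 h, with controls at 182 and 168 CPM (log2 0.97, SE 0.10, edgeR adjusted p = 1.13e-05). The helicase gene DDX10 rose from 77.9 and 90.6 to 178 and 156 CPM (log2 0.99, SE 0.11), LYAR, a nucleolar protein, by 0.90 (SE 0.11) and the assembly factor RRS1 by 0.77 (SE 0.10). NCL, the nucleolar protein nucleolin, which also binds G-quadruplexes, rose from 875 and 933 to 1503 and 1255 CPM (log2 0.61, SE 0.10). Of 21 tested helicases and binding proteins of G-quadruplexes 10 rose and none fell (median log2 0.24), 5 without 4 h replicate 1, 6 without 2 h replicate 1 and 13 with the GC and length correction, with PIF1, NCL, DDX21 (log2 0.55, SE 0.10) and EWSR1 (log2 0.34, SE 0.09) the 4 of smallest p. DDX21 and NCL belong to the ribosome biogenesis list as well. With all libraries 47.6% of the tested G-quadruplex helicases and binding proteins rose, beside 14.0% over all genes.

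**Figure D4:**
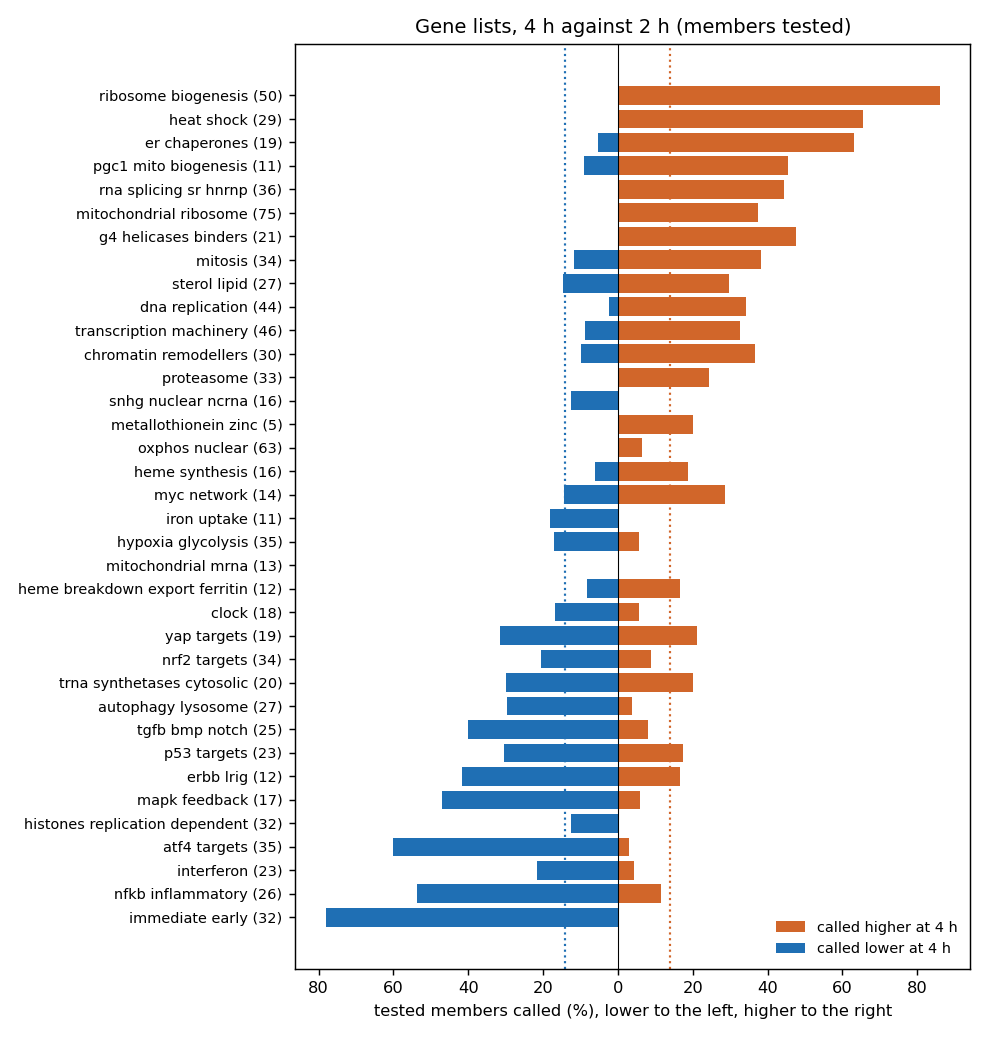
For each gene list, the percent of its tested members (number in brackets) called lower at 4 h than at 2 h to the left and called higher to the right, ordered by the median difference. Dotted lines mark the shares over all tested genes, 14.1% lower and 14.0% higher; ribosome biogenesis stands at 86.0% higher and the immediate early genes at 78.1% lower.

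Lists of nuclear genes of mitochondrial function differed in how many members were called. Mitochondrial ribosomal protein genes rose in 37.3% and PGC-1 pathway genes in 45.5% of cases, beside 14.0% over all genes. They fell in 0% and 9.09% of cases, beside 14.1%. Of 75 tested mitochondrial ribosomal protein genes 28 rose and none fell (median log2 0.26), among them MRPS26 (log2 0.63, SE 0.10), MRPS30 (log2 0.58, SE 0.10) and MRPL15 (log2 0.52, SE 0.11). This count rested on 1 library, since 4 were called without 4 h replicate 1, and it was 41 with the GC and length correction. Of 63 tested nuclear genes of oxidative phosphorylation 4 rose (COX6C, NDUFB3, NDUFV2 and UQCRB, log2 0.29 to 0.44), a share of 6.35% beside 14.0% over all genes. This share moved with the processing. None was called without 4 h replicate 1, 2 were without 2 h replicate 1, 8 without 2 h replicate 2 or 4 h replicate 2, and 13 with the GC and length correction, under which 3410 of all genes were called higher. Of 11 tested genes of the PGC-1 pathway 5 rose and 1, the scarce receptor gene ESRRG (named after its value was seen), fell. The rises numbered 3 without 2 h replicate 1 or 4 h replicate 1, and ESRRG was called only with 2 h replicate 2 and both 4 h libraries in the fit. TFB2M, a mitochondrial transcription factor, rose from 53.1 and 59.4 to 108 and 92.5 CPM (log2 0.83, SE 0.11), TFAM, which packs mitochondrial DNA, by 0.49 (SE 0.12) and the factor gene NRF1 by 0.47 (SE 0.12). Without 4 h replicate 1 neither TFAM (log2 0.37, edgeR adjusted p = 0.135) nor NRF1 (log2 0.48, edgeR adjusted p = 0.061) was called, and without 2 h replicate 1 TFAM was not called (log2 0.31).

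Genes that process RNA and shape chromatin rose more often than they fell. The share that rose was 44.4% in splicing, 36.7% in chromatin and 32.6% in Mediator and TFIID genes, beside 14.0% over all genes. The share that fell was 0%, 10.0% and 8.70% in turn, beside 14.1%. Of 36 tested SR and hnRNP splicing genes 16 rose and none fell (median log2 0.27), 8 without 4 h replicate 1 and 23 without 2 h replicate 2. SRSF2 went from 156 and 174 CPM at 2 h to 300 and 275 CPM at 4 h (log2 0.80, SE 0.10), SRSF7 from 145 and 178 to 277 and 249 CPM (log2 0.70, SE 0.11) and HNRNPU from 598 and 624 to 918 and 834 CPM (log2 0.52, SE 0.09). Of 30 tested chromatin remodellers and histone methyltransferases 11 rose and 3 fell, 7 and 1 without 4 h replicate 1, 7 and 2 without 2 h replicate 1 and 18 and 4 with the GC and length correction. CHD1, a remodeller of transcribed genes, rose by 0.89 (SE 0.15), SETD1B, which methylates histone H3 at promoters, by 0.80 (SE 0.12) and SETD2, which does so in gene bodies, by 0.67 (SE 0.11). Of 46 tested Mediator and TFIID genes 15 rose and 4 fell, TAF13 (log2 0.60, SE 0.13), TAF4B (log2 0.58, SE 0.11), TAF3 (log2 0.56, SE 0.13) and MED10 (log2 0.38, SE 0.09) rising. Without 4 h replicate 1, 5 rose and none fell, and TAF13 was not called (log2 0.41, edgeR adjusted p = 0.066). With the GC and length correction 20 rose and 7 fell. Of 32 tested replication-dependent histone genes 4 fell and none rose, a share of 12.5% lower beside 14.1% over all genes. All 4 were scarce (HIST1H2BE, HIST1H3E, HIST2H2BE and HIST2H2BF, under 10 CPM in every library), and the count was 0 without 2 h replicate 1, 4 h replicate 1 or 4 h replicate 2 and 8 without 2 h replicate 2. Reads of such near-identical genes may be shared.

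Genes that start DNA replication and drive mitosis also rose more often. Rises made up 34.1% of the tested replication genes and 38.2% of the mitosis genes, beside 14.0% over all genes. Falls made up 2.27% and 11.8% in turn, beside 14.1%. Of 44 tested replication genes 15 rose and 1, POLA2 (log2 -0.55, named after its value was seen), fell (median log2 0.21). POLA2 was not called without 4 h replicate 1 (log2 -0.46, edgeR adjusted p = 0.0816). CCNE1, a cyclin of the entry into S phase, went from 12.4 and 15.2 CPM at 2 h to 30.3 and 33.8 CPM at 4 h (log2 1.22, SE 0.14), DBF4, which activates the origin kinase, from 18.4 and 27.4 to 54.1 and 48.9 CPM (log2 1.17, SE 0.16), CDT1, which loads the replicative helicase, from 16.2 and 18.8 to 32.6 and 39.6 CPM (log2 1.04, SE 0.13) and GINS3 from 13.9 and 16.6 to 29.5 and 30.4 CPM (log2 0.98, SE 0.13). In all 4 genes the 4 h libraries did not overlap the 2 h libraries, as in 62.3% of all tested genes. The 4 were picked by smallest p in this same comparison, which favours such a gap. Of 34 tested mitosis genes 13 rose and 4 fell, with 2 falls without either 4 h library and 9 with the GC and length correction. CDCA8, a part of the chromosomal passenger complex, rose by 0.94 (SE 0.12), while CDC25C, a phosphatase that triggers mitosis, fell from 24.0 and 20.4 to 10.4 and 10.9 CPM (log2 -1.06, SE 0.14). The rises without each heme library numbered 11 to 23 for replication and 9 to 18 for mitosis. PC3 cells are p53-null, so the list of p53 targets names genes by their role in other cells. Of 23 tested p53 targets 4 rose (17.4%, beside 14.0% over all genes) and 7 fell (30.4%, beside 14.1%). The cell cycle inhibitor CDKN1A went from 311 and 286 CPM to 172 and 173 CPM (log2 -0.79, SE 0.10) and PLK3 fell by 0.90 (SE 0.12). MDM2, which degrades p53 where p53 is present, rose by 0.74 (SE 0.12) and ZMAT3 by 0.81 (SE 0.12). The number of p53 targets that fell was 3 without 4 h replicate 1, 4 without 2 h replicate 1 or 4 h replicate 2 and 10 with the GC and length correction, and 7 rose without 2 h replicate 2.

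Genes of cholesterol handling were called in both directions. Of 27 tested sterol and lipid genes 8 rose and 4 fell (median log2 0.21), and 15 were not called. The shares were 29.6% and 14.8%, beside 14.0% and 14.1% over all genes. With the GC and length correction 14 rose. SQLE, an enzyme of cholesterol synthesis, was at 81.5 and 90.6 CPM at 2 h and 160 and 150 CPM at 4 h, above the controls at 130 and 126 CPM (log2 0.85, SE 0.10, edgeR adjusted p = 3.35e-05). HMGCS1, an earlier enzyme, rose from 38.1 and 45.6 to 76.0 and 68.6 CPM (log2 0.79, SE 0.12) and STARD4, a sterol carrier, by 1.09 (SE 0.19). At 4 h, SQLE and HMGCS1 were 0.28 above control, which was not called. Among the genes that fell were the cholesterol exporters ABCG1, from 5.66 and 4.57 to 0.988 and 0.627 CPM, and ABCA1 (log2 -1.38, SE 0.32), and the receptor gene NR1H3 (log2 -0.45). The last 2 are named after their values were seen. Of the 4 genes 1 was called lower without 4 h replicate 1, where ABCA1 (edgeR adjusted p = 0.0651) and NR1H3 (edgeR adjusted p = 0.129) were not, and 2 were without 2 h replicate 1 or 4 h replicate 2. Of 35 tested hypoxia and glycolysis genes 2 rose (5.71%) and 6 fell (17.1%), beside 14.0% and 14.1% over all genes. HK2, a hexokinase, was higher (log2 0.56, SE 0.09) and ANGPTL4, a secreted inhibitor of lipoprotein lipase, lower (log2 -1.96, SE 0.20). Of these 6 genes 2 were called lower without 2 h replicate 1, 4 h replicate 1 or 4 h replicate 2, and without 2 h replicate 2 all 6 and 3 others were. Of 18 tested clock genes 3 fell and 1 rose, ARNTL with the largest change (log2 -0.93, SE 0.17). The share that rose was 5.56%, beside 14.0% over all genes. The share that fell was 16.7% beside 14.1% over all genes, the falls numbered 1 without 2 h replicate 1 or 4 h replicate 1, and the rises numbered 4 without 2 h replicate 2 and 0 without each of the other heme libraries.

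The share of promoters that held a given element depended on the size of change asked for, so each is given for genes changed at least 2-fold and for all called genes. RefSeq promoters were found for 8463 of the 16209 tested genes. TATAAA occurred in 11.0% of the 337 promoters of genes that fell at least 2-fold and in 3.57% of the 84 of genes that rose at least 2-fold, beside 6.18% of all tested and 11.5% of the 35116 promoters of the table. Among all called genes it was in 8.39% of the 1097 promoters of genes that fell and 4.60% of the 1369 of genes that rose. TGANTCA occurred in 9.20% of the genes that fell and 4.76% of those that rose at least 2-fold, and in 5.47% and 3.43% of all called, beside 4.96% of all tested and 7.71% of the table. CCGGAAG occurred in 3.86% and 8.33% at 2-fold and in 10.7% and 26.2% of all called, beside 19.8% of all tested and 10.3% of the table. The E-box CACGTG was found in 4.75% and 10.7% at 2-fold and in 7.20% and 13.5% of all called (9.93% of all tested, 7.26% of the table). CCAAT was in 32.3% and 41.7% at 2-fold and in 36.5% and 39.7% of all called (37.4% of all tested, 34.6% of the table). A G-quadruplex pattern (4 runs of at least 3 guanines joined by 1 to 7 bases, on either strand) was found in 34.7% of the promoters of genes that fell and 32.1% of those that rose at least 2-fold, and in 38.2% and 30.8% of all called, beside 33.6% of all tested and 25.0% of the table. These shares carry no test.

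Base composition, level and gene class moved with the direction of change. The median GC content of the longest transcript was 44.4% in genes that rose, 52.8% in genes that fell and 48.6% in genes not called. From the lowest to the highest of 5 equal GC bins, the share of genes called higher went from 22.2% to 7.18% and the share called lower from 7.05% to 20.9%. With a trend against GC content and transcript length removed in each library, a setting chosen after seeing the data, 6212 genes were called, 4337 of them among the 4558. The shares by bin then ran from 20.7% to 21.8% higher and 16.6% to 18.5% lower. The part of GC content in single results was not tested beyond this. Of the 159 called named genes that could be fitted this way, 3 lost their call, DBP, KRT19 and PSMA5.

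**Figure D5:**
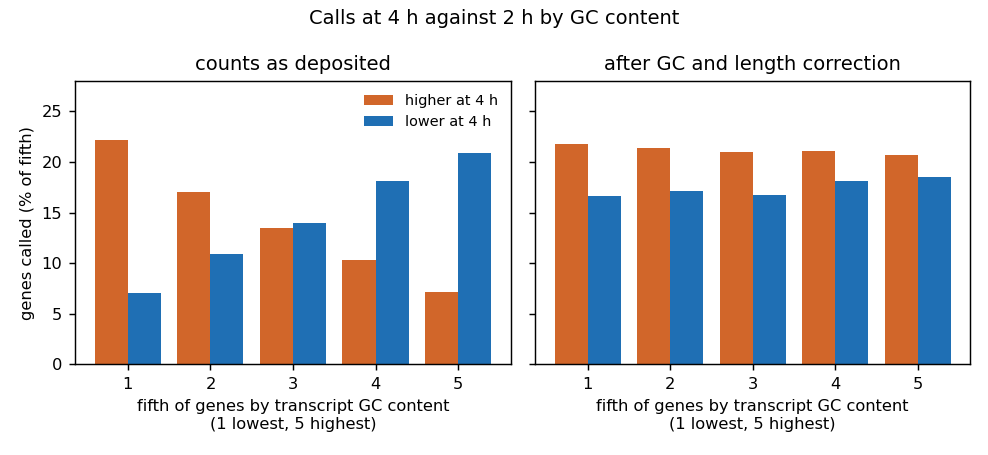
Percent of genes called higher and lower at 4 h than at 2 h in each of 5 equal bins of transcript GC content, from the counts as deposited (left) and after a correction for GC content and transcript length in each library (right). On the left the share called higher goes from 22.2% to 7.18% from low to high GC; on the right it stays between 20.7% and 21.8%.

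By level, genes in the lowest of 5 equal bins (up to 0.985 CPM) were called higher in 1.08% and lower in 9.75% of cases, and genes in the highest (from 78.9 CPM) in 22.1% and 9.59%. Long noncoding genes had few rises, while their share of falls was near or below the 14.1% over all tested genes. Of 1006 lincRNA genes 145 fell (14.4%) and 23 rose (2.29%), and of 1374 antisense genes 162 fell (11.8%) and 28 rose (2.04%). Among 13669 protein-coding genes there were 1968 falls (14.4%) and 2203 rises (16.1%). The strand setting of the counting is not known, so reads of antisense and overlapping genes cannot be told apart from those of their partners. The nuclear noncoding NEAT1 fell from 201 and 237 to 125 and 181 CPM (log2 -0.51, SE 0.14), and its call was lost without 4 h replicate 1. Of 16 tested noncoding host genes and nuclear noncoding RNAs 2 fell (12.5%), NEAT1 and SNHG18 (log2 -1.09, SE 0.21), and none rose. The share that fell over all tested genes was 14.1%. From that list, 11 further names were not analysed here.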

How the data were processed

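Each library came with a deposited table of raw read counts by gene symbol, with the summary rows that HTSeq writes. The tools named per the submitters' processing notes are STAR, Trimmomatic, deepTools and SAMtools, with the hg38 build. For their versions, the annotation release and the strand setting, the sources used here give nothing. The 5 summary rows stayed out of all tests (reads outside genes 5.48% to 6.88%, ambiguous reads 4.23% to 4.48% of a library). Genes were tested with edgeR 4.0.16 in R 4.3.3 (TMM scaling, filterByExpr with a minimum count of 10, quasi-likelihood test, two-sided, Benjamini-Hochberg adjusted p under 0.05), fitted to the 6 libraries at once (biological coefficient of variation 0.0982, 3 degrees of freedom left). CPM values use TMM-scaled totals, except the marker sums and the floor for a count of 0, which use unscaled totals. They are shares of a library, so total RNA per cell was not measured. SEs were computed from each fold change and F value. Between replicates, chi-square per gene ran from 8.86 to 34.0, so none was a duplicate.

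The 4 h libraries were compared with the 2 h libraries, and both with the controls. The members and the 41 gene lists were chosen with earlier results of these data known, and no list was tested as a set. Genes named by rule (178) were the 15 largest rises and falls among called genes with a mean of at least 2 CPM over the heme libraries and no overlap, genes called the same way at 4 h against control, HMOX1, MYC, ALAS1 and HPX, and the 4 members of smallest p in each list. Gene IDs and transcript properties came from GENCODE 29 (16094 of 16209 matched), promoters from RefSeq on GRCh38.p14.

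On simulated counts of 15973 genes for 4 h against 2 h, the test found 59.7% of 67 genes altered 1.5-fold, 92.5% of 67 genes altered 2-fold and 100% of 66 genes altered 4-fold, with 11 false calls. All altered genes had at least 2 CPM at 2 h, and the other genes had the same level in every group, with no GC trend. These shares and false calls are thus not known for scarcer genes or for changes as widespread as those in the data. Alternatives were the size factors and the test of DESeq2 (1.42.0), no filter, a replicate block, only the compared groups, glmTreat at 1.5-fold, leaving out each library, and, chosen after seeing the data, a GC content and transcript length correction.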

Additional observations from a re-analysis of the deposited data

How the results depend on the processing

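Of the 178 genes named by rule, 160 were called between 2 h and 4 h, and none changed direction while called under the alternatives run. When a change beyond 1.5-fold was required, applied to single genes after seeing the data, 98 lost their call; under each other alternative 1 to 34 did, the 34 without 4 h replicate 1. The count of 4558 genes was 4604 with DESeq2 size factors, 4661 with DESeq2, 4822 without a filter and 3917 with only the compared groups. It was 543 (158 higher, 385 lower) when a change beyond 1.5-fold was required. With the GC and length correction 3410 genes were called higher. Leaving out 1 library gave 2199 to 5819 genes, 1166 to 3196 higher and 1033 to 2623 lower. The 5 genes called at 4 h against control became 15 with DESeq2, 10 without a filter, 13 with only those groups, 3 beyond 1.5-fold, 15 after the GC and length correction and 4 to 16 with 1 library left out; HMOX1, ALAS1 and ZNF469 were called in each. The 5136 genes at 2 h against control became 533 beyond 1.5-fold and 2321 to 6254 with 1 library left out. The cause of these changes was not tested. Where a library is left out, the lone library of its group is assumed to vary like the others.

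The labels do not say that replicate numbers pair libraries, and same-numbered libraries did not deviate together (correlation of deviations -0.02 between 2 h and 4 h, 0.07 between control and 4 h, -0.09 between control and 2 h). With the replicate number as a block 4205 genes were called at 4 h against 2 h, 4122 of them among the 4558, 6 at 4 h against control and 4809 at 2 h against control. With 2 libraries per group and a median SE of 0.14 on the log2 scale, changes of this size are not detectable for many genes.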

Other observations

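Several genes stood away from the controls at 4 h under some alternatives and not in the fit reported above; they are named here after their values were seen. RUNX2, a transcription factor of bone development, had 48.1 and 48.0 CPM in the controls, 36.3 and 36.7 at 2 h and 70.8 and 66.7 at 4 h. It thus lay below both controls at 2 h and above both at 4 h, and it rose from 2 h to 4 h (log2 0.91, SE 0.10, edgeR adjusted p = 2.98e-05). The keratin gene KRT34 had 33.6 and 37.7 CPM in the controls, 13.6 and 13.2 at 2 h and 22.1 and 25.5 at 4 h, so it rose by 0.83 (SE 0.13) and was still 0.58 below control on the log2 scale. ESM1, a secreted proteoglycan gene, had 18.2 and 16.8 CPM in the controls, 3.28 and 6.88 at 2 h and 11.0 and 11.2 at 4 h, a rise of 1.13 (SE 0.24). RGS2, which shortens G protein signals, had 54.2 and 49.8 CPM in the controls, 27.8 and 44.2 at 2 h and 30.3 and 30.0 at 4 h, and its groups at 2 h and 4 h were not told apart (log2 -0.26, SE 0.16, edgeR adjusted p = 0.261). MALAT1, a nuclear noncoding RNA, had 246 and 278 CPM in the controls, 132 and 154 at 2 h and 158 and 186 at 4 h (log2 0.27 from 2 h, SE 0.11, edgeR adjusted p = 0.0876). DESeq2 called RUNX2, KRT34, RGS2 and MALAT1 at 4 h against control, and edgeR with only those groups called all 5.

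By chromosome, the share of tested genes that rose from 2 h to 4 h was highest on chromosome 13, at 24.7% (65 of 263). It was lowest on chromosome 19, at 8.87% (100 of 1127), and 10.2% to 17.8% on the other autosomes and X. Both were picked as the extremes after the values were seen, beside 14.0% over all genes. The share that fell on chromosomes 13 and 19 was 10.6% and 16.1%, beside 14.1%. The median log2 difference was 0.11 and -0.09. By gene length, the shortest of 5 equal bins (up to 7.2 kb) rose in 8.48% and fell in 12.8% of cases. The bins between, from short to long, rose in 15.6%, 17.5% and 17.1% and fell in 14.1%, 13.3% and 12.2%. Genes in the longest bin (from 89.0 kb) rose in 11.5% and fell in 18.3%, beside 14.0% and 14.1% over all genes. Base composition differs along these divisions, and its part was not tested.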
